A study of Mus musculus with 6 samples.

Results

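The genes described here are *Il1b*, *Tnf*, *Ccl2*, *Ccl3*, *Ccl4*, *Cxcl1*, *Cxcl2*, *Ptgs2* and *Rgs1*, which encode 2 inflammatory cytokines, 5 chemokines, an enzyme of prostaglandin synthesis and a regulator of chemokine receptor signaling. They are 9 of 23152 genes measured, and a gene was taken from the probe sets that carry its symbol and no other. Germ cells were prepared from the testes of 6 individual FVB males at 22 days post-partum (dpp). In the 3 *Mgat1* cKO mice (*Mgat1*[F/F]:Stra8-iCre) a Cre driven by the *Stra8* promoter deletes floxed *Mgat1* in spermatogonia, and the 3 control mice carried floxed *Mgat1* (*Mgat1*[F/F]) without Cre. *Mgat1* encodes the enzyme that begins the synthesis of complex N-glycans, and only germ cells lose it in this model, so any other testis cell in a preparation keeps the gene.

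Inflammatory cytokines such as IL-1 beta and TNF act on receptors that switch on the transcription factor NF-kB, which in turn drives transcription of cytokines, chemokines and *Ptgs2*. Chemokines recruit leukocytes through G protein-coupled receptors, CCL2 drawing monocytes and CXCL1 and CXCL2 drawing neutrophils in mice. In the testis, resident macrophages between and around the tubules are a known source of these factors, and Sertoli cells and germ cells can make some of them.

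Transcripts were measured on 1 array per mouse, and each value below is a log2 RMA signal averaged over the probe sets of a gene. Array medians lay between 7.31 and 7.32 in *Mgat1* cKO and between 7.35 and 7.38 in control. Genes with a limma p under 0.05 after Benjamini-Hochberg adjustment over all genes were called, as raised or as lowered. By that rule 4255 genes (18.4%) were lowered and 3088 (13.3%) were raised in *Mgat1* cKO, with a median log2 fold change of -0.02 over all genes. *Mgat1* itself had signals of 6.87, 6.69 and 6.80 in *Mgat1* cKO and of 6.91, 7.003 and 6.82 in control. Its log2 fold change of -0.13 did not pass the test (adjusted p = 0.356), and since it is not known whether its probe sets lie in the part that Cre removes, this signal does not check the labels. Of 13 germ cell markers measured, 5 were raised and 5 lowered, with a median log2 fold change of -0.14. Their list means of 9.87 to 10.03 in *Mgat1* cKO and 9.42 to 9.53 in control include the spermatid genes *Tnp1* (3.90), *Prm1* (3.52) and *Acrv1* (1.80), which rose most. Markers of other testis cells also gave signal, and their values stand beside the results they touch.

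Of the 9 genes, 6 were lowered in *Mgat1* cKO germ cells (*Il1b*, *Ccl2*, *Ptgs2*, *Cxcl1*, *Rgs1* and *Cxcl2*), 0 were raised, and *Ccl3*, *Ccl4* and *Tnf* did not pass the test. The 6 falls were between 2.07-fold and 3.31-fold. In 7 genes, those 6 and *Ccl4*, every *Mgat1* cKO array lay below every control array, which held for 26.6% of all genes. The median log2 fold change of the 9 genes was -1.06. By the one-way test of the study's methods, *Ccl2* alone among the 9 passed after adjustment, and 6 passed without it. In a ranking of all genes from the largest fall, *Il1b* stood at place 11 and *Ccl2* at place 20. The arrays hold RNA from whole preparations, so fewer cells of a type and less RNA per cell cannot be told apart.

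**Figure D1:**
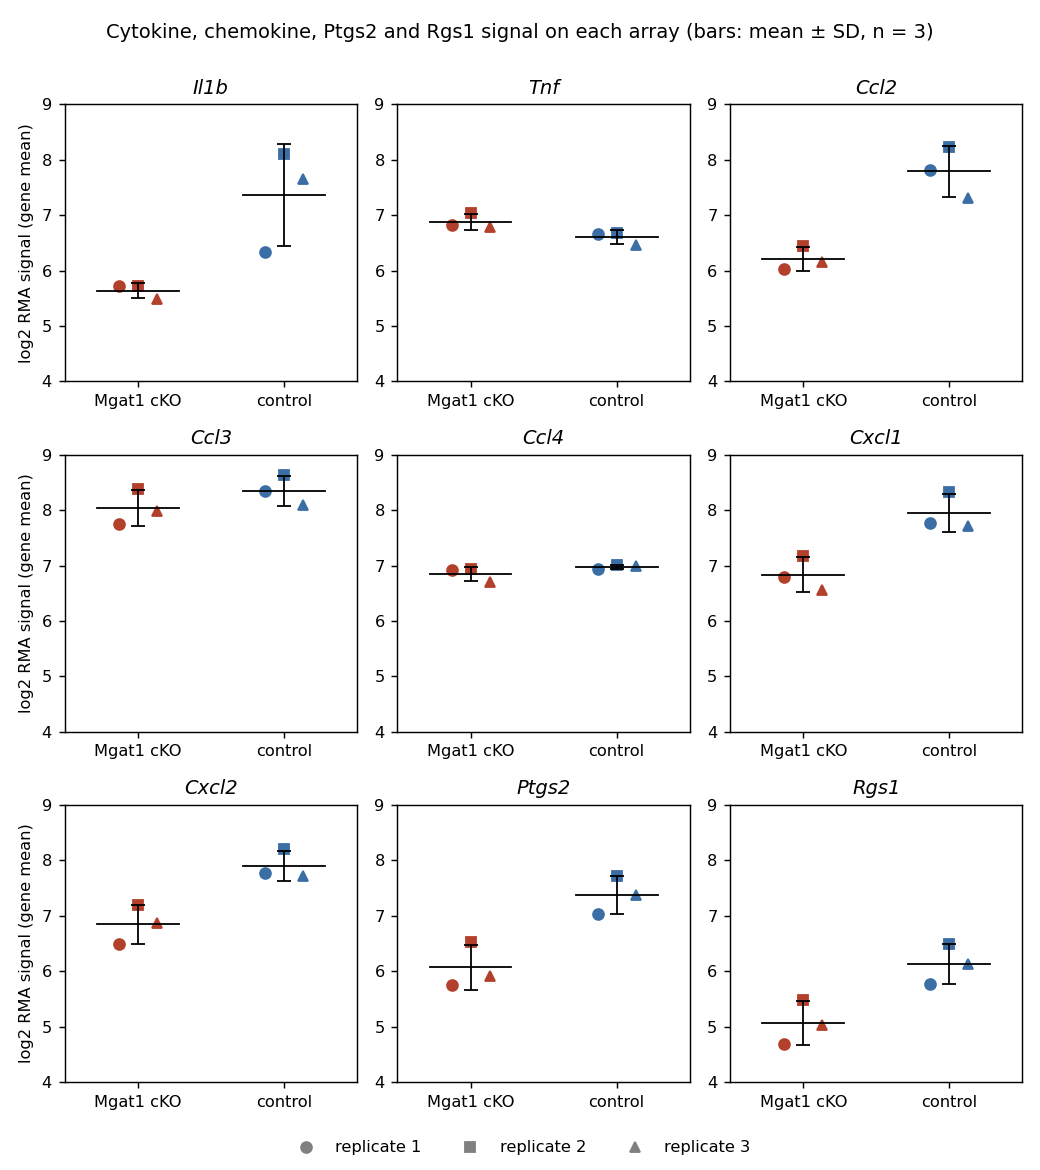
Log2 RMA signal of each gene on every array, with *Mgat1* cKO at the left and control at the right of each panel; symbols mark replicates 1 to 3 and bars show mean ± SD (n = 3 mice). The groups separate clearly for *Il1b*, *Ccl2*, *Ptgs2*, *Cxcl1*, *Cxcl2* and *Rgs1*, overlap for *Ccl3*, and lie closest together for *Ccl4*, and *Tnf* alone is higher in *Mgat1* cKO.

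*Il1b*, the gene of the secreted cytokine IL-1 beta, had signals of 5.72, 5.71 and 5.48 in *Mgat1* cKO, against 6.33, 8.10 and 7.66 in control. The *Mgat1* cKO arrays lay close together, while the control arrays spread widely, with control replicate 1 well under the other control arrays and yet above all *Mgat1* cKO arrays. *Il1b* averaged 5.64 ± 0.14 in *Mgat1* cKO and 7.36 ± 0.92 in control (log2, SD, n = 3 each), a fall of 3.31-fold with a 95% interval of 1.88-fold to 5.82-fold. The log2 fold change was -1.73 (SE 0.36, limma adjusted p = 0.00639). It was -2.24 without control replicate 1 and -1.36 without control replicate 2, and *Il1b* passed the test in both cases.

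*Tnf*, the gene of tumor necrosis factor, had a higher mean in *Mgat1* cKO. Its signals were 6.82, 7.04 and 6.78 in *Mgat1* cKO and 6.67, 6.68 and 6.47 in control, so every *Mgat1* cKO array was above every control array. The means were 6.88 ± 0.14 in *Mgat1* cKO and 6.61 ± 0.12 in control. The log2 fold change of 0.27 had a 95% interval of 0.03 to 0.52 and did not pass the test after adjustment (limma adjusted p = 0.0831). With each array centred on the median of all its probe sets, an alternative chosen after those medians were seen, it was 0.32 and passed (adjusted p = 0.0455). The intervals of *Il1b* and *Tnf* do not overlap, and the difference between the genes was not tested.

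The bases just before the transcription start of *Il1b* and *Tnf* are shown because these cytokine genes, both known NF-kB targets, differed in the direction of their means. They are RefSeq promoter sequences on GRCm38.p6, 130 bases each, read 5′ to 3′ on the strand of the gene, with TATAAA in capitals. *Il1b* lies on the minus strand at chr2:129371140-129371269 and *Tnf* on the minus strand at chr17:35202008-35202137.
Il1b: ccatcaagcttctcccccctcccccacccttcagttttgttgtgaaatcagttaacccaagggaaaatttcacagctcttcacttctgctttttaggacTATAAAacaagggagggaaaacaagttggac
Tnf: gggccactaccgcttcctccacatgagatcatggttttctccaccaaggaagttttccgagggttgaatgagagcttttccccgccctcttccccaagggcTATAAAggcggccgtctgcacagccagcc
TATAAA begins 31 bases before the start in *Il1b* and 29 bases before it in *Tnf*. Searched on both strands over the 250 bases before the start, it occurs in 12.4% of 32851 promoters in the table.

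The 5 chemokine genes split into 3 that fell and 2 that did not pass the test. *Ccl2*, the main attractant of monocytes, fell most among them, with signals of 6.02, 6.45 and 6.16 in *Mgat1* cKO and 7.82, 8.24 and 7.32 in control. The highest *Mgat1* cKO array was well under the lowest control array. *Ccl2* averaged 6.21 ± 0.22 in *Mgat1* cKO and 7.79 ± 0.46 in control, a fall of 2.99-fold (log2 fold change -1.58, SE 0.21, limma adjusted p = 0.00052).

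*Ccl3* and *Ccl4* encode the related chemokines MIP-1 alpha and MIP-1 beta. *Ccl3* had 7.75, 8.39 and 7.99 in *Mgat1* cKO and 8.34, 8.63 and 8.09 in control. The groups overlapped, since *Mgat1* cKO replicate 2 was above control replicates 1 and 3. The log2 fold change of *Ccl3* was -0.31, with a 95% interval of -0.71 to 0.09 (limma adjusted p = 0.219). *Ccl4* had 6.92, 6.93 and 6.70 in *Mgat1* cKO and 6.93, 7.002 and 6.99 in control. Its arrays did not overlap, but the nearest arrays of the groups were equal to 2 decimals, and only *Mgat1* cKO replicate 3 stood apart. The log2 fold change of *Ccl4* was -0.12, with a 95% interval of -0.34 to 0.09 (limma adjusted p = 0.363). The interval of *Ccl2*, -2.05 to -1.11, overlaps neither of these, and the differences among the 3 genes were not tested. *Ccl3* and *Ccl4* are next to each other in the RefSeq gene order. Each probe set used carries 1 symbol, and whether the signals of these 2 genes are fully separate was not tested.

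*Cxcl1* and *Cxcl2*, which encode ligands of the neutrophil receptor CXCR2, fell by like amounts. *Cxcl1* had 6.79, 7.17 and 6.55 in *Mgat1* cKO and 7.78, 8.33 and 7.71 in control. *Cxcl2* had 6.49, 7.20 and 6.86 in *Mgat1* cKO and 7.78, 8.21 and 7.72 in control. In both genes replicate 2 was the highest array of its group, and no *Mgat1* cKO array reached a control array. *Cxcl1* averaged 6.84 ± 0.31 in *Mgat1* cKO and 7.94 ± 0.34 in control, a fall of 2.15-fold (log2 fold change -1.10, SE 0.19, limma adjusted p = 0.00256). *Cxcl2* averaged 6.85 ± 0.35 in *Mgat1* cKO and 7.90 ± 0.27 in control, a fall of 2.07-fold (log2 fold change -1.05, SE 0.19, limma adjusted p = 0.00286). The *Cxcl2* result rests on part of its probe sets, as described below.

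The promoters of *Cxcl1* and *Cxcl2* are shown because these neighboring genes moved together. The RefSeq sequences are on GRCm38.p6, 130 bases before the start on the plus strand, at chr5:90891115-90891244 for *Cxcl1* and chr5:90903769-90903898 for *Cxcl2*. Capitals mark GGAATTTCC, a form of the site that NF-kB binds.
Cxcl1: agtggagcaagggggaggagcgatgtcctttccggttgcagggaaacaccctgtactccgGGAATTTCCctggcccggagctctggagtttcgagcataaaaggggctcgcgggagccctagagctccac
Cxcl2: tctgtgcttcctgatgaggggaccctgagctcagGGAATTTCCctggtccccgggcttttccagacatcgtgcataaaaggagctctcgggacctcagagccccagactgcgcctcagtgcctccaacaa
GGAATTTCC begins 70 bases before the start in *Cxcl1* and 96 bases before it in *Cxcl2*. It lies inside a run of 14 bases that the promoters share, gggaatttccctgg, and a second shared run, gcataaaagg, has 10 bases. On both strands over the 250 bases before the start, GGAATTTCC occurs in 0.286% of the promoters in the table and in 2 of the 6 found there for the 9 genes (*Il1b*, *Tnf*, *Ccl3*, *Cxcl1*, *Cxcl2* and *Ptgs2*). TGANTCA, a form of the site of AP-1 factors, occurs in 0 of these 6 and in 6.75% of all promoters. TTNNGNAA, a loose form of a C/EBP site, occurs in 5 of the 6, all but *Cxcl1*, and in 36.8% of all promoters. The motifs were chosen with the results known, and a match describes letters, not binding.

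*Ptgs2* encodes cyclooxygenase-2, the inducible enzyme that converts arachidonic acid to the precursor of prostaglandins. Its signals were 5.76, 6.53 and 5.92 in *Mgat1* cKO and 7.04, 7.72 and 7.38 in control. *Mgat1* cKO replicate 2 was the highest of its group but still under control replicate 1, the lowest control array. *Ptgs2* averaged 6.07 ± 0.41 in *Mgat1* cKO and 7.38 ± 0.34 in control, a fall of 2.48-fold (log2 fold change -1.31, SE 0.22, limma adjusted p = 0.00191).

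*Rgs1* encodes a protein that shortens signaling by G proteins, including that of chemokine receptors in leukocytes. It had 4.68, 5.49 and 5.03 in *Mgat1* cKO and 5.77, 6.49 and 6.13 in control. The order of replicates within each group was that of *Ptgs2*, and the groups did not overlap. *Rgs1* averaged 5.07 ± 0.40 in *Mgat1* cKO and 6.13 ± 0.36 in control, a fall of 2.09-fold (log2 fold change -1.06, SE 0.22, limma adjusted p = 0.00617).

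**Figure D2:**
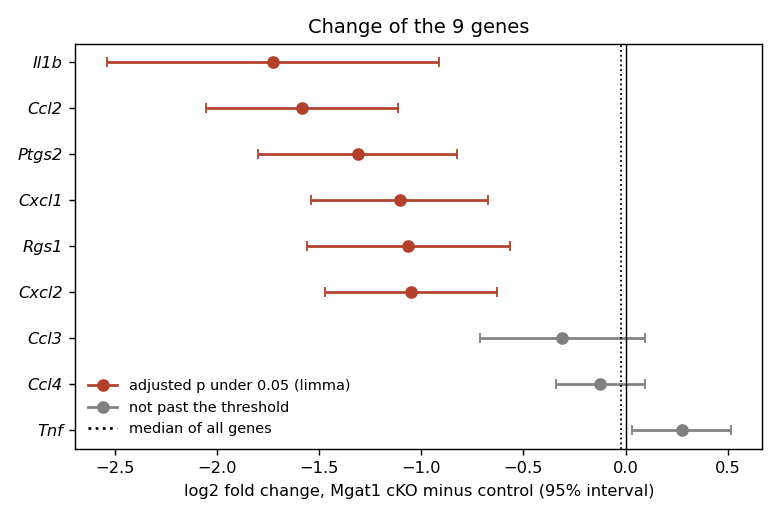
Log2 fold change of each gene, *Mgat1* cKO minus control, with its 95% interval from limma; red points have an adjusted p under 0.05 and the dotted line is the median of all genes at -0.02. The intervals of 6 genes lie wholly below -0.5, those of *Ccl3* and *Ccl4* include 0, and that of *Tnf* lies just above 0.

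The 9 genes were covered by 58 probe sets, and 48 of these had a negative log2 fold change. Tested singly over all probe sets by limma, 12 were lowered and 0 raised, against 3.97% of all probe sets lowered. An unadjusted p under 0.05 was found for 34. The shares of all probe sets with a negative change or with such a p were not counted. At the level of gene means, 9837 of 23152 genes had an unadjusted limma p under 0.05. For *Il1b* all 8 probe sets were negative, from -2.19 to -0.85, and 2 passed. For *Ccl2* all 4 were negative, from -2.09 to -1.08, and 1 passed. For *Ptgs2* all 11 were negative and 4 passed, although the weakest was near 0 at -0.10.

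Other genes were less uniform. Of the 4 probe sets of *Cxcl1*, 3 passed with log2 fold changes of -1.52, -1.50 and -1.40, while the dimmest was at -0.01. Of the 5 of *Cxcl2*, the brightest was flat at 0.03, the other 4 lay between -2.12 and -0.75, and 1 passed. Of the 10 of *Rgs1*, 8 were negative and 1 passed at -2.18. *Ccl3* had 4 of 5 negative, of which 1, at -0.69, had an unadjusted p under 0.05, and its remaining probe set was at 0.38 with all *Mgat1* cKO arrays above control. Of the 6 of *Tnf*, 5 were positive and the dimmest was at -0.05.

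**Figure D3:**
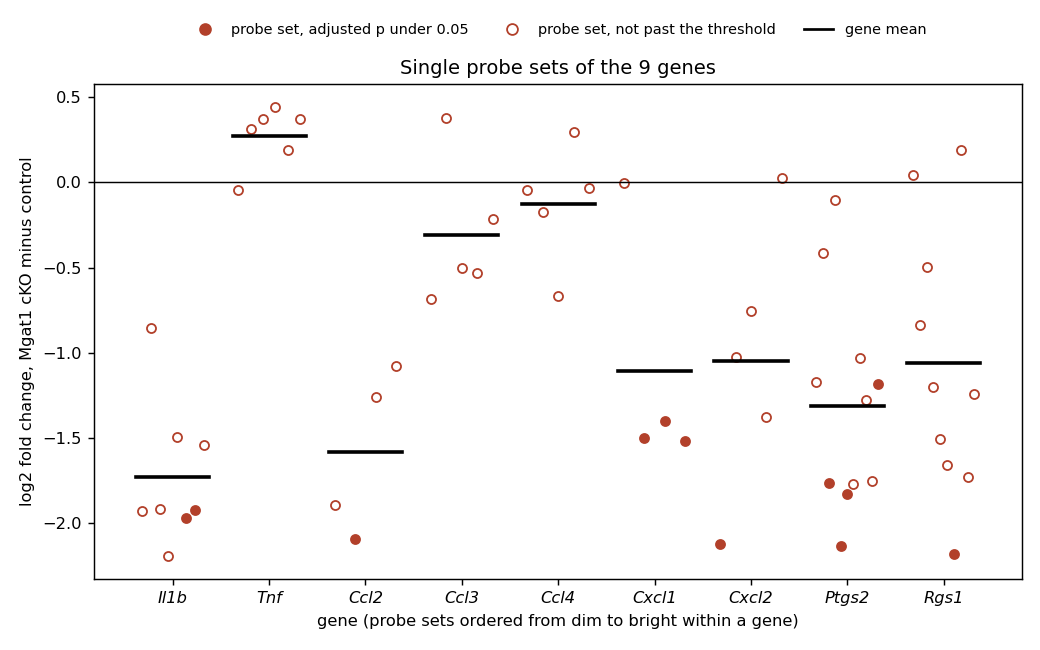
Log2 fold change of every probe set of the 9 genes, *Mgat1* cKO minus control, ordered from dim to bright within a gene; filled points have an adjusted p under 0.05 over all probe sets, and the bar is the change of the gene mean. All probe sets of *Il1b*, *Ccl2* and *Ptgs2* lie below 0, whereas *Cxcl1*, *Cxcl2* and *Rgs1* each include probe sets at or near 0.

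The replicates of a group stood in a like order for most of the genes. Control replicate 2 was the highest control array for all 9 genes, and *Mgat1* cKO replicate 2 was the highest *Mgat1* cKO array for 8 of them, all but *Il1b*. Replicate 2 also had the highest array median of its group, 7.38 in control and 7.32 in *Mgat1* cKO. Its immediate early list mean was highest too, 9.05 in control and 8.55 in *Mgat1* cKO. The stromal list mean was instead highest on control replicate 1 among the control arrays (8.60). The share of all genes with this order was not counted, so it cannot be taken as a trait of the 9 genes. Averaged over the 9 genes, with each gene centred on its own mean, the arrays stood at -0.61, -0.17 and -0.55 in *Mgat1* cKO and at 0.22, 0.77 and 0.34 in control. Over the 6 arrays, *Ptgs2* correlated with the mean of the other 8 genes at r = 0.99, while *Tnf* did so at r = -0.56. These correlations span both genotypes and are descriptions only.

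With predicted genes, RIKEN clones and some gene families left out, 6 genes were most like that average over the 6 arrays. They were *Junb* (r = 0.997), *Ccdc90a* (r = 0.997), *Fmnl3* (r = 0.996), *Myof* (r = 0.996), *Cnn3* (r = 0.994) and *Grk5* (r = 0.994). *Fmnl3*, *Myof* and *Cnn3* encode proteins of the actin cytoskeleton and the plasma membrane, and *Grk5* a kinase of G protein-coupled receptors. *Junb*, which encodes a subunit of the AP-1 transcription factor, had 7.78, 8.13 and 7.89 in *Mgat1* cKO and 8.52, 8.90 and 8.59 in control. It too was highest on replicate 2 of each group, and its groups did not overlap (log2 fold change -0.74, limma adjusted p = 0.00285).

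Neighbors in the same gene families did not all move with the 9 genes. *Il1a*, the other IL-1 cytokine gene next to *Il1b*, fell (log2 fold change -0.71, limma adjusted p = 0.0039). Around *Tnf*, the lymphotoxin genes *Ltb* and *Lta* were at 0.10 and -0.12, and neither passed. Following *Ccl2*, the monocyte chemokine genes *Ccl7* (-0.60), *Ccl12* (-0.70) and *Ccl8* (-0.43) fell, while *Ccl11* and *Ccl1* were at 0.02 and 0.11. Beside *Ccl3* and *Ccl4*, the genes *Ccl6*, *Ccl9* and *Ccl5* were at 0.05, -0.10 and -0.03, and 0 of these 3 passed.

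*Cxcl1* and *Cxcl2* were next to each other, and the 5 family members nearest them did not pass the test. *Cxcl3*, a further CXCR2 ligand, was at -0.002, *Cxcl5* at 0.31, *Cxcl15* at 0.10, *Ppbp* at 0.13 and *Pf4* at -0.20 (log2 fold changes). Farther along the chromosome, *Cxcl10* fell (-0.73, limma adjusted p = 0.002) and *Cxcl9* did not pass (-0.25). *Pla2g4a*, the phospholipase that releases arachidonic acid, is the neighbor of *Ptgs2* and fell (-0.52, adjusted p = 0.00797). *Rgs2*, which lies near *Rgs1*, fell too (-0.55, adjusted p = 0.00369), whereas *Rgs13*, *Rgs18* and *Rgs21* were at 0.10, -0.15 and -0.13 and did not pass.

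In the wider families, calls went both ways. Of 28 other chemokine genes, 7 fell (25%) and 1 rose, with a median log2 fold change of -0.07. On the brightest probe set, lowered genes over all genes numbered 2194, against 4255, and 2 of these chemokine genes fell. The falls numbered 4 without control replicate 2 or without *Mgat1* cKO replicate 1, and the rises 0 in 5 of the 6 fits that left out an array. The largest falls were of *Cxcl12*, a stromal chemokine that retains stem and progenitor cells (-0.91), of the interferon-induced *Cxcl10* (-0.73) and of *Cxcl16* (-0.72). Over all genes, the 6 fits that left out an array lowered between 2911 and 3737 genes, against 4255. They raised between 2369 and 3111, against 3088. A smaller list count in such a fit, here and below, does not by itself set a list apart. Of 29 other cytokine genes, 6 fell (20.7%) and 3 rose (10.3%), near the 18.4% and 13.3% of all genes, with a median of -0.0007. The count of rises was 1 without control replicate 3 or without any 1 of the *Mgat1* cKO arrays. *Csf1*, the growth factor of macrophages, fell (-0.80), as did *Il6* (-0.72), while *Il11* rose (1.20, adjusted p = 0.000226). *Il6*, an inflammatory cytokine, had 4.84, 4.67 and 4.83 in *Mgat1* cKO and 5.07, 5.90 and 5.51 in control, with no overlap.

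Of 20 cytokine and chemokine receptor genes, 6 fell (30%) and 4 rose (20%), against 18.4% and 13.3% of all genes (median -0.18). The falls numbered 3 without control replicate 2, and the rises between 0 and 2 with any array left out. The largest changes were falls of *Cx3cr1*, a receptor typical of monocytes and macrophages (-0.94), of *Il6st*, the signaling subunit for IL-6 and IL-11 (-0.79), and of *Ccrl2*, an atypical receptor (-0.59). Receptors of the ligands described above were chosen by role after their values were seen. *Ccr2*, the receptor of CCL2, fell (-0.53, adjusted p = 0.0214), as did the TNF receptor gene *Tnfrsf1a* (-0.38, adjusted p = 0.0292). The IL-1 receptor gene *Il1r1* was at -0.41 (adjusted p = 0.079) and *Cxcr2* at 0.21 (adjusted p = 0.101), and neither passed. The other TNF receptor gene *Tnfrsf1b* (-0.23, adjusted p = 0.169) and *Ccr1*, a receptor of CCL3 (-0.13, adjusted p = 0.419), did not pass either, and *Cxcr1* rose (0.32, adjusted p = 0.036).

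The inflammasome is the complex that activates caspase-1 to cleave pro-IL-1 beta. Of 14 genes of cytokine release and the inflammasome, 5 fell (35.7%) and 1 rose (7.14%), with a median of -0.13. The thioredoxin inhibitor *Txnip* (-0.96) and the inflammasome genes *Nek7* (-0.71) and *Nlrp3* (-0.60) fell most, and *Casp1* was at -0.10 and did not pass. The gene that rose was *Nlrc4* (0.49, limma adjusted p = 0.0095), also of the inflammasome. *Adam17*, the protease that sheds TNF from cells, fell (-0.56). Of 21 genes of prostanoid synthesis, transport and receptors, 4 fell (19%, near the 18.4% of all genes) and 0 rose (median -0.06), among them *Pla2g4a*, *Hpgd*, which degrades prostaglandins (-0.49), and the transporter gene *Abcc4* (-0.38). *Ptgs1*, the constitutive cyclooxygenase, was at 0.25 and did not pass (adjusted p = 0.0772). Of 20 other RGS genes, *Rgs2* fell and *Rgs6* rose (0.32), with a median of 0.04. Without control replicate 2, control replicate 3 or *Mgat1* cKO replicate 1, the prostanoid falls numbered 2, on the brightest probe set 0, and 1 gene rose without control replicate 1. The call of *Rgs6* was lost without control replicate 2 or *Mgat1* cKO replicate 1. *Adam17*, *Casp1* and *Ptgs1* were named for their roles after their values were seen.

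Among genes upstream and downstream of NF-kB, the share of falls was above the 18.4% of all genes. Of 22 genes of Toll-like receptor and NF-kB signaling, 9 fell (40.9%) and 0 rose (median -0.29), led by the NF-kB subunit *Rel* (-0.92), the kinase *Chuk* (-0.88) and the lipopolysaccharide co-receptor *Cd14* (-0.87). Of 20 NF-kB feedback and target genes, 11 fell (55%) and 2 rose, *Tnfaip2* (0.63) and *Nfkbib* (0.38), with a median of -0.47. The rises numbered 1 without control replicate 2. The adhesion molecule gene *Vcam1* (-0.99), the cytokine signaling inhibitor *Socs3* (-0.79) and *Tnfaip3*, which encodes the NF-kB inhibitor A20 (-0.71), fell most. On the brightest probe set the falls numbered 3 of Toll-like receptor and NF-kB signaling and 5 of the target genes.

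AU-rich elements shorten the life of cytokine transcripts. Of 19 genes listed for decay and stability of such transcripts, not all of which act on these elements themselves, 13 fell (68.4%) and 0 rose (median -0.44). On the brightest probe set 3 fell, while lowered genes over all genes were fewer too, 2194 against 4255. *Zfp36*, whose product destabilizes *Tnf* mRNA, had 8.07, 8.33 and 7.87 in *Mgat1* cKO and 9.14, 9.53 and 9.19 in control, and its log2 fold change of -1.19 passed (limma adjusted p = 0.000298). *Zfp36l2* (-0.97) and the decapping enzyme gene *Dcp2* (-0.76) fell as well. Of 20 immediate early genes, which are switched on within minutes of a stimulus, 12 fell (60%) and 2 rose (median -0.72), and 11 fell on the brightest probe set. The largest falls were in *Btg2* (-1.43), *Egr1* (-1.28) and *Fosb* (-1.18), and the rises were of *Klf4* (0.60) and *Egr3* (0.57).

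**Figure D4:**
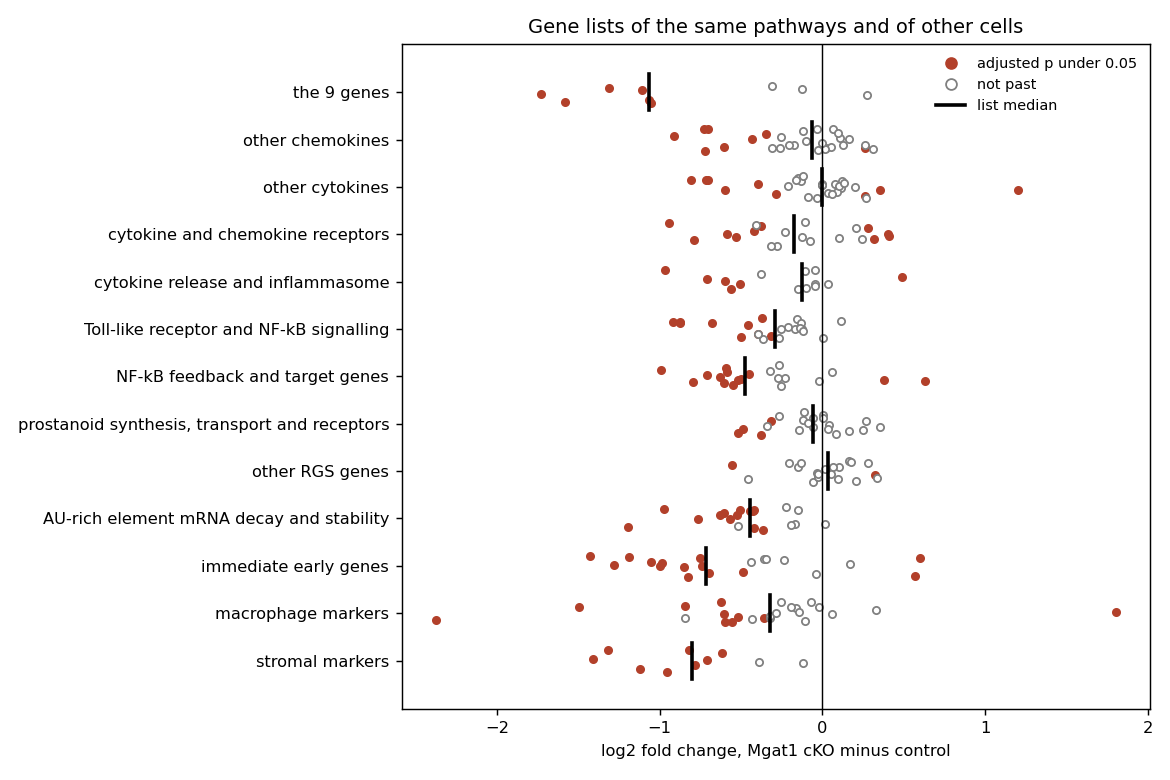
Log2 fold change, *Mgat1* cKO minus control, of the measured genes of each list; filled points have a limma adjusted p under 0.05 and the thick bar is the list median. The 9 genes have a median of -1.06, against -0.07 for other chemokines, -0.0007 for other cytokines and -0.72 for immediate early genes.

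Markers of macrophages, a main source of these cytokines, were in part lower in *Mgat1* cKO. Of 24 macrophage markers, 9 fell (37.5%, against 18.4% of all genes) and 1 rose (4.17%), with a median of -0.32. The rises numbered 2 without control replicate 1. The list means were 6.87, 7.37 and 7.19 in *Mgat1* cKO and 7.51, 7.69 and 7.34 in control, and overlapped, with *Mgat1* cKO replicate 2 above control replicate 3. *Cd74*, the MHC class II invariant chain, fell most (-2.37) and *Ctss*, a protease of the same pathway, fell too (-1.50). *Aif1* rose (1.80), so the list did not move as a block. Its signals were 9.48, 9.38 and 9.21 in *Mgat1* cKO and 7.55, 7.48 and 7.61 in control. *Aif1* raises the list means of *Mgat1* cKO more than those of control, so the overlap need not hold for the other markers. The other falls were of *C1qb* (-0.84), *Mrc1* (-0.62), *Fcgr1* (-0.60), *Cd53* (-0.60), *Ptprc* (-0.56), *C1qa* (-0.52) and *Fcer1g* (-0.36), while *Adgre1* (-0.02), *Csf1r* (-0.43) and *Cd68* (-0.32) did not pass. These 10 genes were named after their values were seen. On the brightest probe set of each gene, 4 macrophage markers fell.

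The macrophage list mean, *Aif1* included, was 0.37 lower in *Mgat1* cKO than in control. Subtracting it from each array moves the difference of every gene by that amount, so only the order of the arrays can tell more. After it, every *Mgat1* cKO array still lay below every control array for *Ccl2* (-1.21), *Ptgs2* (-0.94), *Cxcl1* (-0.73), *Rgs1* (-0.69) and *Cxcl2* (-0.68). For *Il1b* (-1.36) the groups overlapped, because *Mgat1* cKO replicate 1 was at -1.15 and control replicate 1 at -1.18.

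Stromal markers, of the connective tissue cells between tubules, fell for the most part. Of 10 stromal markers, 8 fell (median -0.80), led by *Pdgfra* (-1.41), *Dcn* (-1.32) and *Col3a1* (-1.12). The stromal list means of 7.30, 7.96 and 7.62 in *Mgat1* cKO were all below those of 8.60, 8.53 and 8.21 in control. With the stromal list mean of each array subtracted instead, which was 0.82 lower in *Mgat1* cKO, *Ccl2* (-0.76) alone kept every *Mgat1* cKO array below every control array. The groups then overlapped for *Il1b* (-0.90), *Ptgs2* (-0.49), *Cxcl1* (-0.28), *Rgs1* (-0.24) and *Cxcl2* (-0.23). For *Tnf* (1.10), *Ccl4* (0.70) and *Ccl3* (0.51) every *Mgat1* cKO array then lay above every control array. A marker mean on the log2 scale is not a measure of cell number, and the part of macrophages or stromal cells in the falls was not tested. Of 11 Sertoli cell markers, 5 fell (45.5%) and 0 rose, with a median of -0.34 (*Trf* -0.81, *Cldn11* -0.55 and *Fshr* -0.51). Of 7 Leydig cell markers, *Hsd3b6* fell (-1.78) and *Insl3* rose (0.43), with a median of -0.75. The Leydig list means were 7.52, 8.91 and 8.57 in *Mgat1* cKO and 8.87, 9.34 and 8.79 in control, so the groups overlapped, and *Mgat1* cKO replicate 1 was well under the other arrays. The falls of Sertoli cell markers numbered 1 on the brightest probe set and 2 or 3 without control replicate 2, control replicate 3 or *Mgat1* cKO replicates 2 or 3. No Leydig cell marker fell without control replicate 2, 3 fell without *Mgat1* cKO replicate 2, and the rise was lost without control replicates 1 or 2 or *Mgat1* cKO replicates 1 or 3.

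Few markers of other leukocytes passed the test, in either direction. Of 13 neutrophil markers, 3 rose (*S100a9* 0.55, *Mpo* 0.52 and *Camp* 0.43), or 23.1% against 13.3% of all genes, and 0 fell. The list means were 5.48, 5.67 and 5.94 in *Mgat1* cKO and 5.51, 5.52 and 5.41 in control. The rises numbered 1 without control replicate 3 or *Mgat1* cKO replicate 3. Of 12 lymphocyte and NK markers, *Cd79a* rose (0.34) and 0 fell, and of 8 dendritic cell markers *Siglech* fell (-0.39) and 0 rose. Of 10 endothelial markers, *Vwf* rose (0.30) and 0 fell. The single calls of these 3 lists were each lost in 3 or more of the 6 fits that left out an array. No call was made among 8 mast cell, 6 peritubular myoid and 2 red blood cell markers, whose smallest adjusted p values by limma were those of *Hdc* (0.0516), *Des* (0.105) and *Slc4a1* (0.345). The part of any of these cell types in the falls of the 9 genes was not tested.

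**Figure D5:**
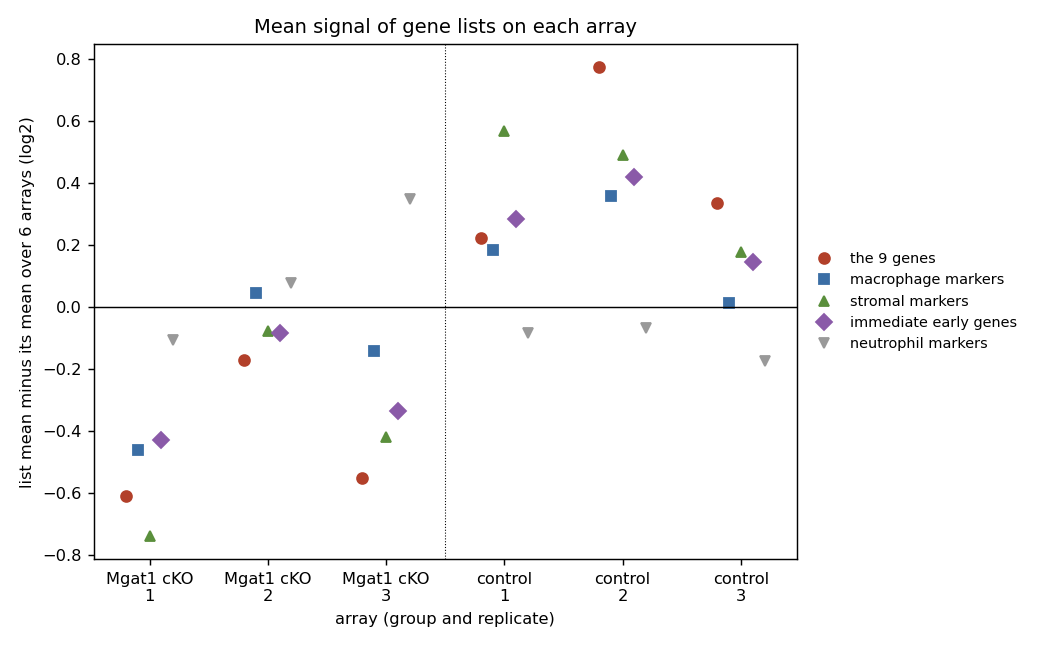
Mean log2 signal of the 9 genes and of 4 gene lists on each array, minus the mean of that list over the 6 arrays, with the *Mgat1* cKO arrays at the left. The 9 genes, the stromal markers and the immediate early genes are lower on every *Mgat1* cKO array than on any control array. The macrophage markers, with the raised *Aif1* among them, overlap, and the neutrophil markers are highest on *Mgat1* cKO replicate 3.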

How the data were processed

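The authors processed the arrays (Affymetrix Mouse Gene 2.0 ST, 1 mouse each) in Expression Console with RMA, which corrects background, normalizes between arrays and summarizes probes, and deposited log2 signals for 269751 probe sets. The build and the versions of Expression Console and RMA were not given in these sources. At low signal RMA makes folds smaller, and 3 mice per group limit the precision. The litter of each mouse is unknown, hence genotype and litter cannot be told apart.

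Probe sets with 1 gene symbol in a platform table (233753) were averaged per gene and array, giving 23152 genes. *Mgat1* cKO was compared with control by limma 3.58.1 in R 4.3.3 (2-sided, no covariate, no filter), with Benjamini-Hochberg adjustment over all genes, and single probe sets likewise. In a simulation on 23152 genes, 50 genes each were changed 1.5-fold, 2-fold, 4-fold and 8-fold. There limma recovered 52% of genes changed 1.5-fold and 92% of those changed 2-fold, and 9 of 181 calls were false. The real comparison called 7343 genes. The cutoff after adjustment depends on the share of changed genes, so these rates need not hold for the real comparison.

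The 9 genes and all lists were chosen with earlier results of these data known. From each list, up to 3 called genes with the largest change were named. Where none was called, the gene with the smallest adjusted p was named. Some others, among them genes that rose, were named after their values were seen. Family neighbors and the 6 genes most like the average of the 9 were named too. Before those 6 were taken, predicted genes, RIKEN clones, olfactory and vomeronasal receptor genes, small RNA genes and immunoglobulin and T cell receptor segments were left out. Gene order and promoters came from RefSeq (GRCm38.p6), whose promoter table holds 6 of the 9 genes. Plots were made in Python 3.11.15 (matplotlib 3.10.9).

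Alternatives were a replicate block, leaving out each array, quantile normalization, centring of arrays, group medians, the brightest or the median probe set of a gene, dim probe sets left out, a trended robust variance, array weights, a 2-fold threshold and the one-way test of the methods. Subtraction of the stromal marker mean was added after the list means were seen.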

Additional observations from a re-analysis of the deposited data

How the results depend on the processing

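With each array left out in turn, 6 of the 9 genes were lowered and 0 raised every time (lowest 6, highest 6 lowered). With the replicate block 6 were lowered and 0 raised, although same-numbered arrays did not deviate together (r of 0.03, 0.10 and -0.06), so the numbers were not taken as pairs. Median centring over genes, quantile normalization, array weights, the other variance model and the 2-fold threshold also gave 6 lowered and 0 raised. *Tnf* was raised, making 1 gene raised, with the dimmest 25% of probe sets left out (0.34, adjusted p = 0.0369) and with arrays centred on the median of all probe sets (0.32, adjusted p = 0.0455), a setting chosen after seeing the data. *Cxcl2* reversed to 0.026 on its brightest probe set and was at -0.68 (adjusted p = 0.08) with the dimmest 50% of probe sets left out. By the methods' one-way test with adjustment 1 gene, *Ccl2*, was lowered, with adjusted p of 0.101 for *Il1b*, 0.0581 for *Ptgs2*, 0.0619 for *Cxcl1*, 0.0637 for *Cxcl2* and 0.0905 for *Rgs1*, and without adjustment 6 were. The cause of these changes was not tested. Probe sets lowered among those of the 9 genes numbered 20, against 12, with the dimmest 25% left out, and the share of all probe sets lowered there was not counted. Over all genes, 4255 were lowered, against 2629 with the median of probe sets and 2194 with the brightest probe set. The one-way test lowered 2408 with adjustment and 4983 without it. At 2-fold or more, 113 were lowered and 968 were raised, the latter against 3088. On the brightest probe set the lowered counts were 3 of the AU-rich list, against 13, 3 of Toll-like receptor and NF-kB signaling, against 9, 5 of NF-kB targets, against 11, and 2 of other chemokines, against 7.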
